A study of Homo sapiens with 8 samples.

Results

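JUN, JUNB and JUND, and the D-type cyclin genes CCND1, CCND2 and CCND3, were examined for binding of the transcription factor RFX7 in RPE-1, an established human line of telomerase-immortalised retinal pigment epithelium. The 6 genes were chosen by name as the paralogues of these families, out of 20033 protein-coding genes, and every listed RFX7 peak within 10 kb of their gene bodies was taken. This gave 5 of the 1790 peaks in the 2 deposited lists, all 5 from the list of 1234 peaks made after Nutlin-3a and 0 from the list of 556 peaks made after DMSO. Treatment lasted 24 h, with 10 µM Nutlin-3a, a small molecule that keeps MDM2 off p53 and so lets p53 accumulate, or with DMSO, its solvent. Chromatin immunoprecipitation and sequencing (ChIP-seq) used 3 µg of an RFX7 antibody, and the labels give 2 ChIP and 2 input samples for each treatment, of which no single sample has values here. Each treatment has a single peak list, so the values below carry no replicate error and no difference between treatments could be tested. Read depth is unknown from these lists, and a site missing from a list is one that was not called there.

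RFX7 belongs to the RFX family of winged-helix proteins, which bind the X-box, an inverted repeat found in promoters. It is known as a factor through which p53 raises genes that restrain growth. JUN, JUNB and JUND are the JUN subunits of AP-1, a dimeric leucine zipper factor that answers growth factors and stress. JUN is widely known to promote proliferation and JUNB and JUND more often to restrain it. The D-type cyclins bind and activate CDK4 and CDK6, the kinases that start phosphorylation of the retinoblastoma protein and so open the way from G1 into S phase.

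After Nutlin-3a, RFX7 peaks were listed at CCND1, which had 4, and at JUNB, which had 1. JUN, JUND, CCND2 and CCND3 had none in the 10 kb window. Thus 2 of the 6 genes had a peak, where 270 of all 20033 protein-coding genes did (1.35%). In the DMSO list 0 of the 6 genes had a peak, and so did 13 of all protein-coding genes (0.0649%), so that an absence there is what nearly every gene shows. No count here is tested, because the genes were named with earlier results of these data known.

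The sequences before 4 gene starts are shown for a member with a peak (JUNB), the member promoter with an RFX element (CCND3), and the kinase CDK4 and its inhibitor CDKN2D, described further on, whose promoters hold the element inside a peak. Each line gives the 250 bases before an annotated start, 5′ to 3′ on the gene's own strand, from RefSeq (GRCh38.p14). Capitals mark the RFX element GTTGCNA, a single arm of the X-box searched on both strands. In JUNB, whose printed bases hold none, they mark the CCAAT box. The JUNB and CCND1 peaks lie outside the sequences at hand, so the peaks themselves were not searched for the element.
JUNB (plus strand, chr19:12791236-12791485): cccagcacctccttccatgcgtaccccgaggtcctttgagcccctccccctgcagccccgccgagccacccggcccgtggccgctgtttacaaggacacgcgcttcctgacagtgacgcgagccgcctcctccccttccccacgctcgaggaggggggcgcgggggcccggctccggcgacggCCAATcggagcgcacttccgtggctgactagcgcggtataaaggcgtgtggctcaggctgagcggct
CCND3, start at 41941808 (minus strand, chr6:41941809-41942058): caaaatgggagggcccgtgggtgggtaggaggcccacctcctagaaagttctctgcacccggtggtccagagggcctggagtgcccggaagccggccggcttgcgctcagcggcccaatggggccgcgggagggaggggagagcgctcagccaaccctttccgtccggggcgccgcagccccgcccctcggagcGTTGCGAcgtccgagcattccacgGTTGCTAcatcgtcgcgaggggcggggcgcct
CDK4 (minus strand, chr12:57752311-57752560): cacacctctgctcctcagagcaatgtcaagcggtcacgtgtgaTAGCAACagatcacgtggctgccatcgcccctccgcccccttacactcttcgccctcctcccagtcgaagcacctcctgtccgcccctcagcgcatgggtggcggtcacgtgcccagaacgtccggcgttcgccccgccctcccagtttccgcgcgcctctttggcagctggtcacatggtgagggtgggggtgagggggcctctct
CDKN2D (minus strand, chr19:10568980-10569229): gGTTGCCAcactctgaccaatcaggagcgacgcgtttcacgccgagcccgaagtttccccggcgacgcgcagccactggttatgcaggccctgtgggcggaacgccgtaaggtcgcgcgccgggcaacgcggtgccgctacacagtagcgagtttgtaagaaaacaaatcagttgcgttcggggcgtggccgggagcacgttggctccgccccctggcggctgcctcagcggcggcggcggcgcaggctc

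CCND1 encodes cyclin D1 and spans chromosome 11 from 69641156 to 69654474, with positions as in the lists (hg38) and the gene table (GRCh38.p14). The tables used here give no strand for CCND1. It is known to be transcribed from the plus strand, and on that knowledge, not a measurement, rest the words 5′ end, upstream, downstream and before the gene below. Its 4 peaks lay at the 5′ end, within a stretch of 2870 bp that ran from 2622 bp before the gene's first base to 247 bp after it. They fell into 2 pairs. Within the distal pair the gap between the peaks was 73 bp and within the proximal pair 76 bp, while 1114 bp separated the pairs.

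The strongest CCND1 peak by both measures was in the distal pair. It covered 69638768 to 69639587, a width of 820 bp, with a fold enrichment (column 7 of the list) of 6.71 and a −log10 p (column 8) of 41.4. Its summit lay 2347 bp before the gene, 5.0% of the way into the peak, and its middle 1979 bp before the gene. The narrow peak beside it, 69638534 to 69638694 and 161 bp wide, had a fold enrichment of 4.03, a −log10 p of 12.8 and a summit 2545 bp before the gene. The distal pair therefore held a broader, stronger call and a narrower, weaker one. Over the whole Nutlin-3a list the medians were a width of 161 bp, a fold enrichment of 2.77 and a −log10 p of 23.8.

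The proximal pair flanked the first base of the gene. The peak on its upstream side covered 69640702 to 69641113, 412 bp that ended 43 bp before the gene, with a fold enrichment of 5.83, a −log10 p of 27.2 and a summit 362 bp before the gene. The peak on its downstream side covered 69641190 to 69641403, with all of its 214 bp inside the gene, a fold enrichment of 3.87, a −log10 p of 11.2 and a summit 106 bp into the gene. The first base itself lay in the gap between these peaks. Across the 4 peaks fold enrichment, −log10 p and width gave the same order, except that the narrow distal peak was above the intragenic peak in the first 2 measures and below it in width.

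**Figure D1:**
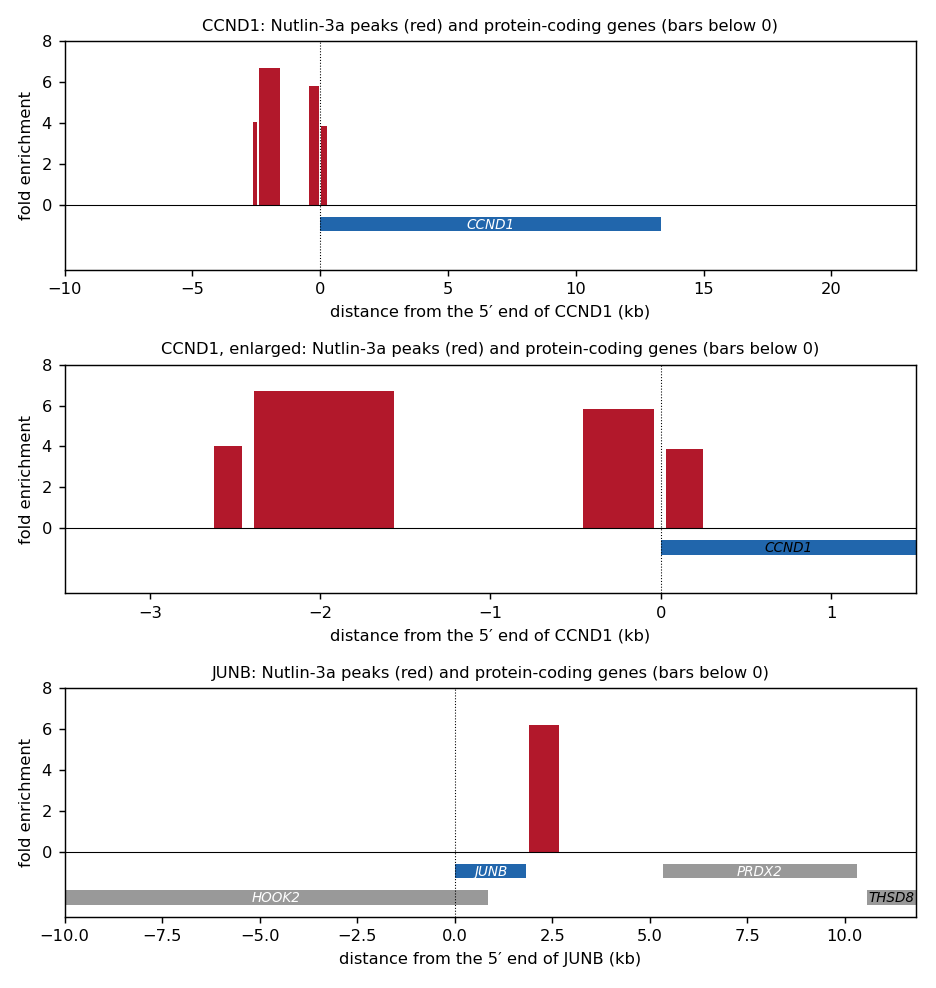
Positions of the 5 Nutlin-3a peaks at CCND1 (top, whole 10 kb window; middle, enlarged) and JUNB (bottom). The horizontal axis is the distance from the gene's 5′ end in kb, the height of a red bar is the peak's fold enrichment, and bars below 0 are protein-coding genes. The 4 CCND1 peaks fall into 2 pairs at and before the gene start, and the JUNB peak lies beyond the 3′ end of JUNB.

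JUNB encodes the JunB subunit of AP-1 and spans chromosome 19 from 12791486 to 12793315 on the plus strand. Its peak lay at the other end of the gene. It covered 12793386 to 12794165, a width of 780 bp that began 71 bp after the last base of JUNB, with a fold enrichment of 6.22 and a −log10 p of 84.4. The summit was 197 bp beyond the 3′ end and 2026 bp from the JUNB start, and the 300 bp promoter window, whose upstream part is printed above, ended 1851 bp short of the peak. HOOK2, a minus-strand gene for an adaptor that links dynein to cargo, overlaps JUNB and has its listed start 1036 bp from the peak, so that the peak is downstream of JUNB and upstream of HOOK2. HOOK2 was also the nearest start of any gene in the promoter table, at 1162 bp from the summit. PRDX2, a peroxidase gene, was 2658 bp away on the other side, and THSD8 7904 bp away on that side. The microRNA gene MIR5684 was 6194 bp away on the JUNB side. Peak lists do not tell which of these genes a peak belongs to.

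Peaks at a 3′ end were rare in this list. Of 101 Nutlin-3a peaks with a summit within 1000 bp of a protein-coding boundary, 84 were nearest to a gene whose strand the promoter table gives. At 82 of these the nearest boundary was the 5′ end, and at 2 it was the 3′ end, those of JUNB and CLK3-AS1.

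In strength the JUNB peak stood higher by −log10 p than by fold enrichment among these boundary peaks, ranking 19 and 34 of 101. The 101 peaks had a median fold enrichment of 5.08 (interquartile range 4.17 to 7.23) and a median −log10 p of 27.2 (14.8 to 60.3). The 3 boundary peaks next above JUNB in fold enrichment were at TSPYL1 (6.47), COQ10A (6.45) and RFX5 (6.34), and the 3 next below at MARK3 (6.19), GART (6.12) and SPRYD3 (6.06). Their −log10 p ranged from 12.2 at GART to 38.9 at RFX5, below the 84.4 of JUNB in every case. Likeness here means nearness in a single value over the peaks of 1 list.

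Of the 4 CCND1 peaks, the 2 of the proximal pair count as boundary peaks, and both were lower than the JUNB peak by either measure. The upstream proximal peak ranked 41 of 101 by fold enrichment and 51 by −log10 p. Its neighbours by fold enrichment were the peaks of TOB1 (6.05), SENP2 (6.05) and UBE2N (5.84) above it and of COQ10B (5.67), CDKN2D (5.51) and INTS3 (5.47) below it. The intragenic peak ranked 84 and 87 of 101, between BTBD6 (4.01), SOX4 (3.99) and MAF (3.94) above and DOHH (3.76), a second TOB1 peak (3.75) and CAT (3.72) below. In the whole list of 1234 the 5 peaks ranked 73 (CCND1, broad distal), 93 (JUNB), 115 (CCND1, upstream proximal), 291 (CCND1, narrow distal) and 315 (CCND1, intragenic) by fold enrichment. By −log10 p the same peaks ranked 371, 177, 552, 878 and 923, so JUNB led CCND1 by that measure and the broad CCND1 peak led by fold enrichment.

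**Figure D2:**
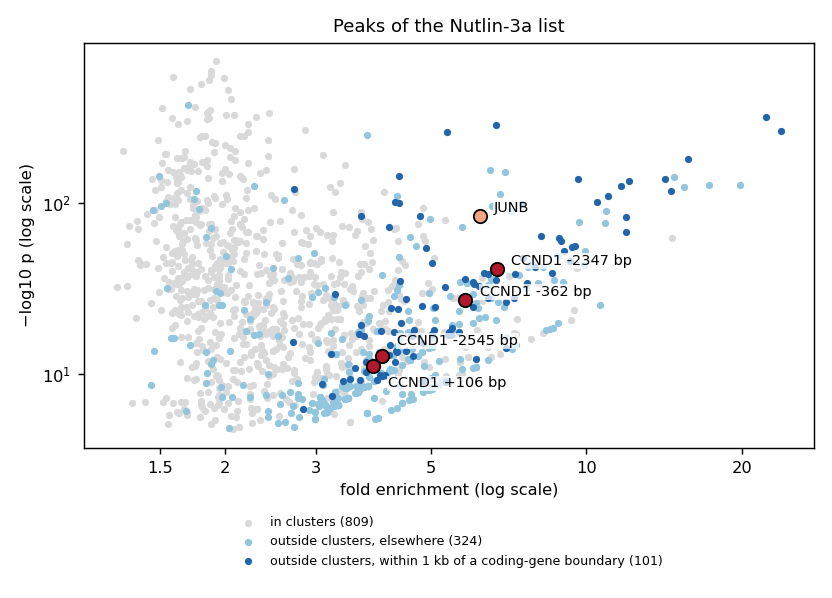
Fold enrichment (horizontal, log scale) against −log10 p (vertical, log scale) for the 1234 peaks of the Nutlin-3a list. Grey points are the 809 peaks in clusters, light blue points the 324 other peaks away from coding-gene boundaries, dark blue points the 101 with a summit within 1 kb of such a boundary, and large points the JUNB peak and the 4 CCND1 peaks, labelled by summit distance from the gene start. JUNB lies above the 3 boundary peaks next above it and the 3 next below it in fold enrichment, and the 4 CCND1 peaks run from 3.87-fold to 6.71-fold.

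None of the 5 peaks lay in a cluster, defined as a peak with at least 5 other listed regions within 500 kb. At least 4 peaks within 10 kb, a cut-off taken from the count of CCND1, were listed for 4 protein-coding genes after Nutlin-3a. These were 0.02% of all such genes and 1.48% of the 270 with a peak. At least 2 peaks were listed for 24 genes, 8.89% of the 270. The calling settings are unknown, so the lists cannot tell whether calls 73 or 76 bp apart, as in the CCND1 pairs, are separate sites. In the Nutlin-3a list 6 protein-coding genes (0.03%) had at least 3 peaks within 10 kb of the gene body, and they were CCND1, BBC3, NRG3, DUX4, ROCK1 and LOC124905450. The 6 peaks of ROCK1 and the 7 of LOC124905450 were in clusters. Fold enrichment reached 2.24 at DUX4 and 3.49 at NRG3, against 6.71 at CCND1 and 17.3 at BBC3, the gene of the p53-induced death protein PUMA. The 3 BBC3 peaks were spread over 11487 bp, the 3 of NRG3 over 478821 bp and the 4 of CCND1 over 2870 bp. Close spacing was not particular to CCND1. The 4 DUX4 peaks spanned 4032 bp, the 6 of ROCK1 1939 bp and the 7 of LOC124905450 4308 bp.

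The paralogues without a peak were far from any. The nearest Nutlin-3a peak to JUND, 122 kb away (18157082 to 18157520 on chromosome 19, 4.34-fold, −log10 p 33.2), lay inside PIK3R2, which encodes a regulatory subunit of PI3K. The nearest to CCND2 was 242 kb away (4031020 to 4031702 on chromosome 12, 6.45-fold, −log10 p 33.4), with PARP11 as the closest protein-coding gene at 157621 bp. CCND3 had its nearest peak at 3.23 Mb, a peak of 69 bp inside GLO1, and JUN at 9.58 Mb, a peak of 3.62-fold inside AGBL4. The farthest peak counted for a gene was 2462 bp from it and the nearest one left out was 122 kb from JUND. The CCND2 neighbour had a fold enrichment within the range of the CCND1 peaks.

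**Figure D3:**
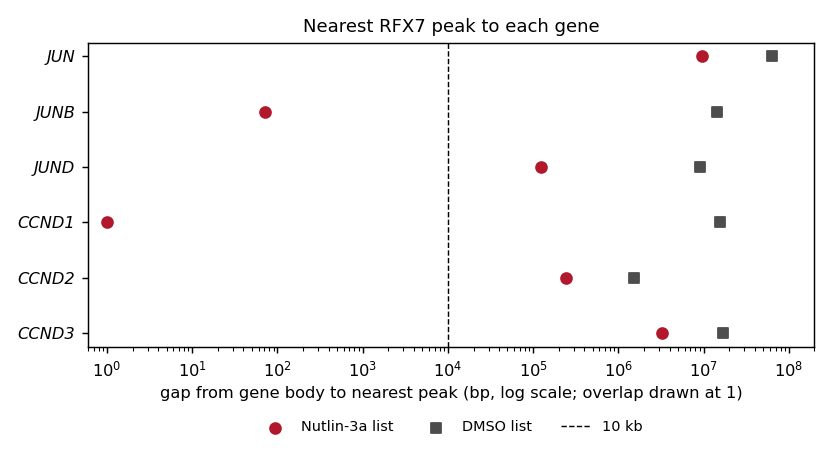
Gap from each gene body to the nearest peak of either list, in bp on a log scale, with an overlap drawn at 1 and the 10 kb window as a dashed line. CCND1 and JUNB lie left of the line in the Nutlin-3a list (circles), and every gap to a DMSO peak (squares) is 1.53 Mb or more.

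After DMSO the nearest peak was 1.53 Mb from CCND2, 9.08 Mb from JUND, 14.6 Mb from JUNB, 15.7 Mb from CCND1, 16.7 Mb from CCND3 and 63.0 Mb from JUN. JUNB and JUND had the same nearest DMSO peak (27360465 to 27360614 on chromosome 19, 3.20-fold). Of all 556 DMSO peaks, 1 (0.18%) had its summit within 1000 bp of a protein-coding boundary. With the nearest DMSO peaks 14.6 Mb and 15.7 Mb away, none of the 5 Nutlin-3a peaks of JUNB and CCND1 could overlap one. The absence of overlap therefore adds nothing to these distances. Whether signal below the calling threshold was present at these sites after DMSO cannot be read from the lists.

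Promoter sequences were matched for 4 of the 6 genes, with 1 listed start each for JUN, JUNB and JUND and 3 for CCND3. CCND1 and CCND2 were not matched. The RFX element GTTGCNA, held on either strand by 3233 of 35116 promoters (9.21%), was in 1 of these 6. That was the promoter of the CCND3 start at 41941808, which holds 2 matches. These are GTTGCGA, 56 bp before the start, and GTTGCTA, 32 bp before it. The Nutlin-3a peak nearest to that CCND3 start was 3241783 bp away. A match without a peak is the common case. Of 35116 promoters of the same length, 1001 (2.85%) held GTTGCTA on either strand, and 28 of the 1001 (2.80%) overlapped a Nutlin-3a peak, against 102 of the 34115 others (0.299%).

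The promoters of the JUN genes held other elements. JUN has TGACATC, the variant AP-1 site through which JUN is known to drive its own gene, 67 bp before the start, and 4.22% of all promoters hold these letters on either strand. JUND has the cAMP response element core TGACGTC at 2 places, 200 and 88 bp before the start, the first of them read on both strands. That core occurs in 3.45% of promoters. A CCAAT box lay 67 bp before the start of JUNB, 74 bp in JUND and 87 bp in JUN, and 34.6% of all promoters hold CCAAT on either strand. GC content was 62.0% in JUN, 71.0% in JUNB and 77.0% in JUND, above the median of 58.7% over all promoters.

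Other genes of the same pathways were counted from lists drawn up by family. Of 8 genes for cyclins E, the kinases CDK2, CDK4 and CDK6, and the pocket proteins, 1 had a Nutlin-3a peak within 10 kb. This was CDK4, a kinase that D-type cyclins activate. Its peak (57752380 to 57752693 on chromosome 12, 7.67-fold, −log10 p 34.3) had its summit 202 bp from the gene boundary, at the 5′ end, and ranked 22 of 101 boundary peaks by fold enrichment. The peak covered 181 bases of the CDK4 promoter window and held its RFX element, which is GTTGCTA on the opposite strand (TAGCAAC as printed above), 207 bp before the start. CYP27B1, TSPAN31 and MARCHF9 were the other protein-coding genes within 10 kb of it, at 2161 bp or more. CDK6, the other kinase of the D-type cyclins, had no peak in its window, nor had CDK2, CCNE1, CCNE2, RB1, RBL1 and RBL2.

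Of 7 CDK inhibitor genes, 1 had a Nutlin-3a peak, CDKN2D, which encodes an INK4 inhibitor of CDK4 and CDK6. This peak (10569137 to 10569403 on chromosome 19, 5.51-fold, −log10 p 18.5) had its summit 191 bp from the 5′ end and ranked 43 of 101. KRI1 and AP1M2 were the other protein-coding genes within 10 kb of this peak, at 3127 and 3268 bp. The peak held the GTTGCCA of the CDKN2D promoter, 249 bp before the start, and 4.08% of all promoters hold those letters on either strand. The other 6 genes, with no peak in the window, were CDKN2A, CDKN2B and CDKN2C, also of the INK4 family, and CDKN1A, CDKN1B and CDKN1C of the CIP/KIP family, among them the p53 target CDKN1A.

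Among 18 other AP-1 genes, of the FOS, ATF, BATF and MAF groups, 1 had a Nutlin-3a peak, MAF (79600937 to 79601204 on chromosome 16, 3.94-fold, −log10 p 9.20). The summit of this peak lay 285 bp from the 5′ end of MAF, and the peak overlapped the non-coding gene LOC101928230. The peak covered 51 bases of the MAF promoter window, which does not hold GTTGCNA on either strand. FOSB, FOSL1, FOSL2 and ATF3 had none, nor had FOS. A peak 19.2 kb from FOS, singled out after its values were seen, was stronger by fold enrichment than any at JUNB or CCND1 (75259063 to 75259623 on chromosome 14, 8.82-fold, −log10 p 48.9), and FOS was its nearest protein-coding gene boundary. Of 5 genes for cyclins A and B, 0 had a peak. In the DMSO list 0 genes of these 4 lists had a peak. Against the 1.35% of all protein-coding genes, counts of 1 in lists of 7, 8 and 18 are too small to set a list apart.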

How the data were processed

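RFX7 ChIP-seq of RPE-1 cells was analysed from 2 deposited peak lists in narrowPeak layout, 1 for each treatment, and groups came from the sample titles. Nothing in the labels says that the samples of a group came from separate cultures. Per the submitters' processing notes the build was hg38, and the tools named, with no role given, were bcl2fastq 2.20.0.422, Trimmomatic 0.39, FastQC 0.11.9, cutadapt 2.10, SAMtools 1.10, Picard, MACS2 2.2.7.1 and bedtools 2.29.2. The aligner, the calling settings, the control and the way replicates were combined are not given in the sources used here. The fold enrichment (a ratio whose reference is not stated), the −log10 p, the −log10 q and the score of a peak are the authors' deposited values, and they were used within a list only. The score was not used further.

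Distances were computed with Python 3.11.15 and pandas 2.3.3 from the nearest edges of peak and gene body, in a RefSeq gene table of GRCh38.p14. Summits are the deposited offsets. The promoter table spans 250 bp before to 50 bp after a start. Counts were checked on simulated peaks. No test was run. The members and gene lists were chosen with earlier results of these data known. Named were all members and their peaks, the nearest peak where there was none, and neighbours within 10 kb of a member peak. Listed pathway genes with a peak were also named, as were the 3 boundary peaks above and below by fold enrichment. Alternatives changed the window, the peak threshold, the part of the peak, the overlap rule and the ranking.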

Additional observations from a re-analysis of the deposited data

How the results depend on the processing

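No paired analysis was possible because the lists give values per treatment and not per sample, which also left no replicate to leave out. The count of 2 genes with a Nutlin-3a peak, JUNB and CCND1, was also found with windows of 1, 5, 50 and 100 kb, with −log10 q of at least 5, with peaks above the median fold enrichment, and with the summit or the middle of the peak in the window. It was 1 (CCND1) when a peak had to overlap the gene body, since the JUNB peak begins 71 bp outside. The DMSO count was 0 in all 9 alternatives, and no peak of JUNB or CCND1 was shared under the 2 other overlap rules. Neither result could come out otherwise, since every DMSO peak was 1.53 Mb or more from the 6 genes. The share of all protein-coding genes with a Nutlin-3a peak ran from 0.829% for overlap with the gene body to 4.49% within 100 kb, and it was 0.866% over all annotated genes, an alternative chosen after seeing the data. For the related genes, windows were also varied after seeing the data. When a Nutlin-3a peak had to overlap the gene body, 0 other AP-1 genes, 0 genes of G1 cyclins, kinases and pocket proteins and 0 CDK inhibitor genes had one. The AP-1 count was 2 (MAF and FOS) within 50 and 100 kb, and the G1 count 2 (CDK4 and CCNE2) within 100 kb. Measured from the middle of the peak, the broad distal CCND1 peak was 1979 in place of 2347 bp before the gene and the JUNB peak 460 in place of 197 bp beyond its 3′ end. Unknown read depth limits each absence, in the DMSO list above all.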

Other observations

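The promoters that overlapped a Nutlin-3a peak, 130 of 35116, differed in letters from the whole table. GTTGCTA was in 21.5% of the 130 and in 2.85% of all promoters, GTTGCCA in 6.15% and 4.08%, and CCAAT in 67.7% and 34.6%. The AP-1 element TGANTCA was in 3.08% of the 130 and 7.71% of all. The median GC content was 65.3% and 58.7%. Promoters of divergent genes share sequence, so these shares are descriptions without a test. The E-box CACGTG was in 11.5% of the 130 and 7.26% of all, and the CDK4 promoter held 3 of them, 216, 196 and 101 bp before the start, all inside its peak.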
